A study of Mus musculus with 4 samples.

Results

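A set of 10 genes that mark bile duct and progenitor epithelium was followed: the keratins Krt8, Krt18, Krt7, Krt19 and Krt23, the surface and junction proteins Epcam, Cd24a and Cldn7, the transcription factor Sox9, and Spp1. They were found by symbol among the probe sets annotated to 1 gene, and several probe sets of a gene were averaged. Of the 10 genes, 9 had a value, from 14 probe sets, out of 10923 genes measured in all; Spp1 carried no probe set of that symbol in the annotation used and was not analysed here.

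The livers came from male C57BL6/J mice of 6 to 13 weeks. All mice were injected once with an siRNA in the carrier Invivofectamine 3.0, and 3 days later 40% of the liver was cut away (partial hepatectomy, PH). RNA was taken 48 h after PH, and there were 2 arrays of the siControl group (control siRNA) and 2 of the siOrm group (siRNA against Orm1, an acute phase protein of hepatocytes). The array was the Affymetrix Mouse Genome 430A 2.0, per the series text. The labels do not say whether an array holds 1 mouse or a pool, and name the second group's arrays siOrm1 and siOrm2, which were read as replicates 1 and 2. P-values therefore measure the spread between these 4 arrays, which may be technical.

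Keratins are the intermediate filament proteins of epithelial cells, and a filament is built from pairs of 1 type I and 1 type II chain. Hepatocytes of the adult mouse make almost only KRT8 (type II) with KRT18 (type I); bile duct cells also make KRT7 and KRT19. Ductal and progenitor cells further carry EPCAM, an adhesion molecule, CD24, a small glycosylated surface protein, SOX9, a transcription factor of bile duct development, and osteopontin, the product of Spp1. In a piece of whole liver, fewer cells of a type and less RNA per cell cannot be told apart.

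Each value is a log2 signal given relative to the median of the 4 arrays for that probe set, so values compare arrays for 1 gene and say nothing of how strongly the gene was expressed. For the same reason the labelled tissue could not be checked by the level of its marker genes. Base 2 is assumed; with natural logarithms all differences would be 1.44 times larger. The targeted gene gave only a weak check of the labels: Orm1 was at 0.02 and 0.19 in siControl and at -0.24 and -0.02 in siOrm (limma, adjusted p = 0.994). SiControl replicate 2 stood apart from the rest: the standard deviation over genes of its difference from another array was 0.341 to 0.428, against 0.233 to 0.31 among the other 3 arrays.

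The sequences just before the starts of 4 keratin genes are given because these genes split into the patterns described next. Krt8, Krt18 and Krt23 were highest in siControl replicate 2, and Krt7 was not. Krt8 and Krt18 are neighbours on chromosome 15 with no protein-coding gene between them, and they are transcribed away from each other, head to head, in the RefSeq annotation of GRCm38.p6. Each window holds the 250 bases before the start, 5′ to 3′ on the gene's strand: Krt8 at chr15:102004343-102004592 (minus strand), Krt18 at chr15:102027966-102028215 (plus), Krt23 at chr11:99493121-99493370 (minus) and Krt7 at chr15:101412153-101412402 (plus). Capitals mark a match to 1 of 5 motifs on either strand, searched as AP-1 (TGANTCA), TEAD (GGAATG), RBPJ (GTGGGAA), SP1 (GGGCGG) and the TATA box (TATAAA).
Krt8: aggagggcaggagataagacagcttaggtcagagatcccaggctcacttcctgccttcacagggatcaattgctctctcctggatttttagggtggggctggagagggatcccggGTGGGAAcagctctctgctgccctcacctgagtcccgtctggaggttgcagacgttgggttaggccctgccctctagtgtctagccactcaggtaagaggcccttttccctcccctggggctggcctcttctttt
Krt18: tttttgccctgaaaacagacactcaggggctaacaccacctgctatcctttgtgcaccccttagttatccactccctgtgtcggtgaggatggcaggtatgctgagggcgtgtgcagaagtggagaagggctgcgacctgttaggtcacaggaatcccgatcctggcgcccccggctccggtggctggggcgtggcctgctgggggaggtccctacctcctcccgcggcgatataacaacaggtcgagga
Krt23: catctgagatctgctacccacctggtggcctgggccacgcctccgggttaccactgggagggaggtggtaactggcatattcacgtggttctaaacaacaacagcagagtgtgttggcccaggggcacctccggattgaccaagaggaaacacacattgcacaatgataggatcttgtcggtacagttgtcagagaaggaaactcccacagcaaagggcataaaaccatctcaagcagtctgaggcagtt
Krt7: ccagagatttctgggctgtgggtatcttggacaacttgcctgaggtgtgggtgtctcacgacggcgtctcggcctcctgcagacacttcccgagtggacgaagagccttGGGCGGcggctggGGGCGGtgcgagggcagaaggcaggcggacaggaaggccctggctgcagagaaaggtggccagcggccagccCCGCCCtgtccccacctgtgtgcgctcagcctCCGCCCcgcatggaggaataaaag
Krt7 held 4 matches to the SP1 letters, a motif found in 32.7% of 32851 RefSeq windows of this length. Krt8 held 1 match to the RBPJ letters, which begins 135 bases before the start; 5.42% of all windows hold one. Krt18 and Krt23 held none of the 5, and no matches overlapped in these 4 windows. The AP-1 letters are in 6.75% of all windows, the TEAD letters in 12.6% and the TATA box in 12.4%. Of the 10 genes, 7 had a window in the table; Krt19, Sox9 and Cd24a had none. A match describes the letters and is not a binding site.

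No gene of the set passed the test between siOrm and siControl. By limma with Benjamini-Hochberg adjustment over all genes, 0 of 9 passed at an adjusted p under 0.05, with adjusted p from 0.994 to 0.999, against a background of 0% (0 of 10923 genes). At an unadjusted p under 0.05 there was 1 of the 9, Krt18, lower in siOrm (limma). The background in this fit was 2.58% of genes lower and 2.18% higher, and that share is not given here for the alternatives. The count over the 9 genes was not stable. It was 2 after quantile normalization (Krt8 and Krt18), 3 with the replicate block (these and Krt7, which was higher in siOrm) and 0 with a trend in the variance prior. It was also 0 without probe sets that can share sequence, where Krt8, Krt7 and Epcam dropped out and 6 genes were left. Krt18 kept its difference of -1.12 there, and its p moved only from 0.0497 to 0.0509 (limma). Leaving out siControl replicate 2 changed the difference of Krt18 to -0.45. What the arrays show instead is that these markers did not move as 1 group: Krt8, Krt18, Krt23 and Sox9 had 1 high siControl array, while Krt7, Krt19, Cd24a, Epcam and Cldn7 did not. The plot of all 9 genes by array shows this split.

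**Figure D1:**
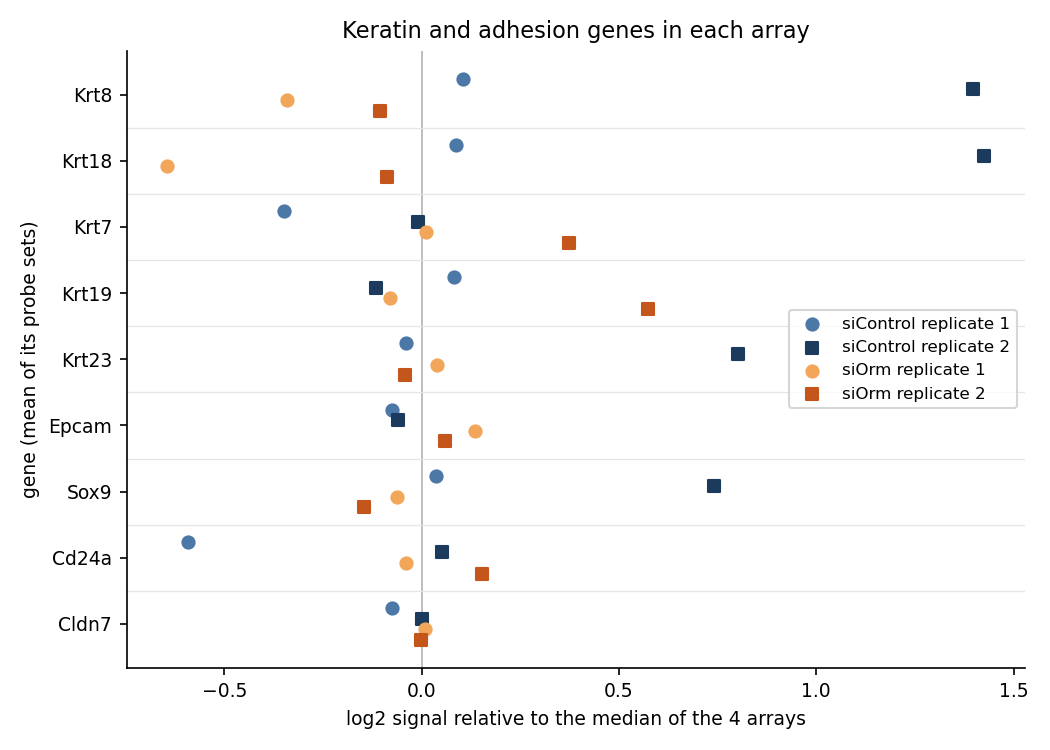
Log2 signal of the 9 measured genes relative to the median of the 4 arrays (horizontal axis), one row per gene and one point per array. SiControl replicate 2 stands at 1.40 and 1.43 for Krt8 and Krt18, while the 4 points of Cldn7 lie within 0.084.

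The hepatocyte keratin pair had the widest spread. Krt18 stood at 0.09 and 1.43 in siControl and at -0.64 and -0.09 in siOrm. Krt8, its type II partner, stood at 0.11 and 1.40 in siControl and at -0.34 and -0.11 in siOrm. For both genes each siOrm array lay below each siControl array, but siControl replicate 1 was much nearer to the siOrm arrays than to siControl replicate 2. The siOrm minus siControl difference of Krt18 was -1.12 (SE 0.45, 95% interval -2.24 to -0.0020), a level in siOrm 0.459 times that in siControl, and it did not pass (limma, adjusted p = 0.994). The difference of Krt8 was -0.97 (SE 0.41, 95% interval -1.997 to 0.051; limma, adjusted p = 0.994), or 0.509 times.

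Within the siControl group alone, Krt8 differed by 1.29 and Krt18 by 1.34 between the 2 arrays, 2.45 and 2.53 times on a linear scale. These gaps were larger than the group differences just given. Of 10923 genes, 102 exceeded siControl replicate 1 in siControl replicate 2 by more than Krt8 did, and 91 by more than Krt18. Without siControl replicate 2 the differences were -0.33 for Krt8 and -0.45 for Krt18. Without siControl replicate 1, which leaves siControl replicate 2 alone against the siOrm arrays and assumes that it varies as the others do, they were -1.62 (limma, adjusted p = 0.0166) and -1.79 (limma, adjusted p = 0.0272), and both genes then passed among 229 genes that did.

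The 2 partners followed each other closely. The Euclidean distance between their 4 values was 0.31, which put Krt8 at rank 11 of the 10922 other genes by nearness to Krt18, and Krt18 at rank 18 by nearness to Krt8. The bile duct keratins ranked much lower: Krt19 was at rank 9169 (distance 1.68) and Krt7 at rank 7715 (1.59) by nearness to Krt8. Krt8 has 1 large value, so a gene flat in all 4 arrays is also far from it. These ranks therefore partly reflect the range of a gene. The genes nearest to Krt8 were Ncapg2 (distance 0.077), Mki67 (0.13) and Rbl1 (0.14), and those nearest to Krt18 were Smc2 (0.13), Atf3 (0.17) and Ier3 (0.19). Mki67, the gene of the Ki-67 antigen of dividing cells, stood at 0.18 and 1.43 in siControl and at -0.40 and -0.18 in siOrm. With 4 arrays this nearness is a description.

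Krt23, a type I keratin, had the same single high array without the separation of the groups. It stood at -0.04 and 0.80 in siControl and at 0.04 and -0.04 in siOrm. The 3 arrays other than siControl replicate 2 all lay between -0.04 and 0.04, and the groups overlapped. The difference was -0.38 (SE 0.28, 95% interval -1.08 to 0.32; limma, adjusted p = 0.994), and without siControl replicate 2 it turned to 0.04.

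Sox9 had the same single high array, but unlike in Krt23 its groups did not overlap. It stood at 0.04 and 0.74 in siControl and at -0.06 and -0.15 in siOrm. Its difference was -0.49 (SE 0.25, 95% interval -1.10 to 0.12; limma, adjusted p = 0.994), and -0.14 without siControl replicate 2. The genes nearest to Sox9 were Fam118a (distance 0.037), Xpo1 (0.049) and Hcls1 (0.053).

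SiControl replicate 2 was more than 0.5 above each other array in 4 of the 9 genes, against 4.44% of all genes. The 4 were Krt8, Krt18, Krt23 and Sox9, which were grouped here by that high array. Quantile normalization gives each array the same spread of values. After it, this excess held for 2 of the 9, Krt8 and Krt18, and for 0.842% of all genes. Krt8 then stood at 0.10 and 0.74 in siControl against -0.27 and -0.18 in siOrm, and Krt18 at 0.08 and 0.76 against -0.50 and -0.15.

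The bile duct keratins stood the other way. Krt7, the type II keratin of ducts, stood at -0.35 and -0.01 in siControl and at 0.01 and 0.37 in siOrm. Both siOrm arrays were above both siControl arrays, but siControl replicate 2 and siOrm replicate 1 nearly coincided. The difference was 0.37 (SE 0.19, 95% interval -0.11 to 0.85; limma, adjusted p = 0.994). Krt19, its usual type I partner in ducts, stood at 0.08 and -0.12 in siControl and at -0.08 and 0.57 in siOrm. Its groups overlapped, and siOrm replicate 2 alone was high. The difference was 0.26 (SE 0.24, 95% interval -0.33 to 0.86; limma, adjusted p = 0.994), and it was -0.06 without siOrm replicate 2. The distance between Krt7 and Krt19 was 0.49, which ranked Krt7 at 832 of 10922 by nearness to Krt19 and Krt19 at 2483 by nearness to Krt7.

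Among the surface and junction genes, Cd24a stood at -0.59 and 0.05 in siControl and at -0.04 and 0.15 in siOrm. SiControl replicate 1 was the low array and the other 3 were close, so the groups overlapped. The difference was 0.33 (SE 0.24, 95% interval -0.26 to 0.92; limma, adjusted p = 0.994), and it was 0.0052 without siControl replicate 1. Epcam stood at -0.08 and -0.06 in siControl and at 0.13 and 0.06 in siOrm. Its arrays did not overlap between groups, within a range of 0.21 that is below the median range over all genes of 0.34. The difference was 0.16 (SE 0.13, 95% interval -0.15 to 0.48; limma, adjusted p = 0.994). Cldn7, a claudin of tight junctions, stood between -0.08 and 0.0084 in all 4 arrays, with a difference of 0.04 (SE 0.13, 95% interval -0.28 to 0.36; limma, adjusted p = 0.999).

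Over the 9 genes, each siOrm array was lower than each siControl array in 3 (Krt8, Krt18 and Sox9) and higher in 2 (Krt7 and Epcam). The background was 15.3% of all genes lower and 17% higher. SiControl replicate 1 was the lowest array in 4 (Krt7, Epcam, Cd24a and Cldn7; 20.6% of all genes), and siOrm replicate 2 the highest in 3 (Krt7, Krt19 and Cd24a; 18.3%). The range over the 4 arrays was under 0.25 in 2, Epcam and Cldn7, against 32% of all genes. The median difference was 0.04 over the 9 genes and 0.0084 over all genes, while the mean over the 9 was -0.20; the median turned to -0.064 without siOrm replicate 2 and to -0.17 over the 6 genes left without probe sets that can share sequence. In direction, 4 of the 9 differences were below 0 against 47.8% of all genes. The values varied more than in most genes: the median range over the 4 arrays was 0.75 in these genes and 0.34 over all genes.

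**Figure D2:**
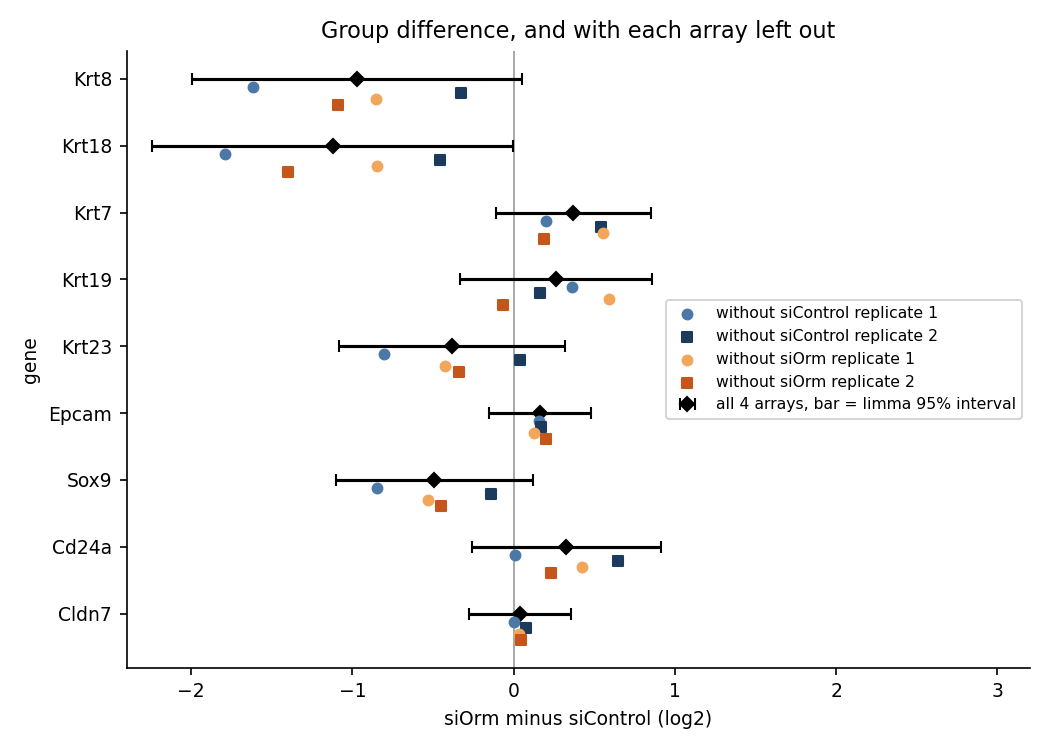
The siOrm minus siControl difference in log2 units for each gene from all 4 arrays (black diamonds, with limma's 95% interval) and with each array left out (coloured points). Leaving out siControl replicate 2 moves Krt8 from -0.97 to -0.33 and Krt18 from -1.12 to -0.45, while Epcam stays between 0.13 and 0.20.

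Several probe sets were present for Krt8, Sox9 and Cd24a. The 3 of Krt8 stood at 1.41, 1.40 and 1.38 in siControl replicate 2, and their differences ran from -1.002 to -0.95. All 3 have names that mark possible sharing of sequence with other transcripts. The 2 probe sets of Sox9 differed by -0.47 and -0.51 between the groups. Those of Cd24a disagreed more, with siControl replicate 1 at -0.93 in one and at -0.44 and -0.41 in the others, and with differences from 0.26 to 0.45. In each Cd24a probe set siControl replicate 1 was the lowest array.

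**Figure D3:**
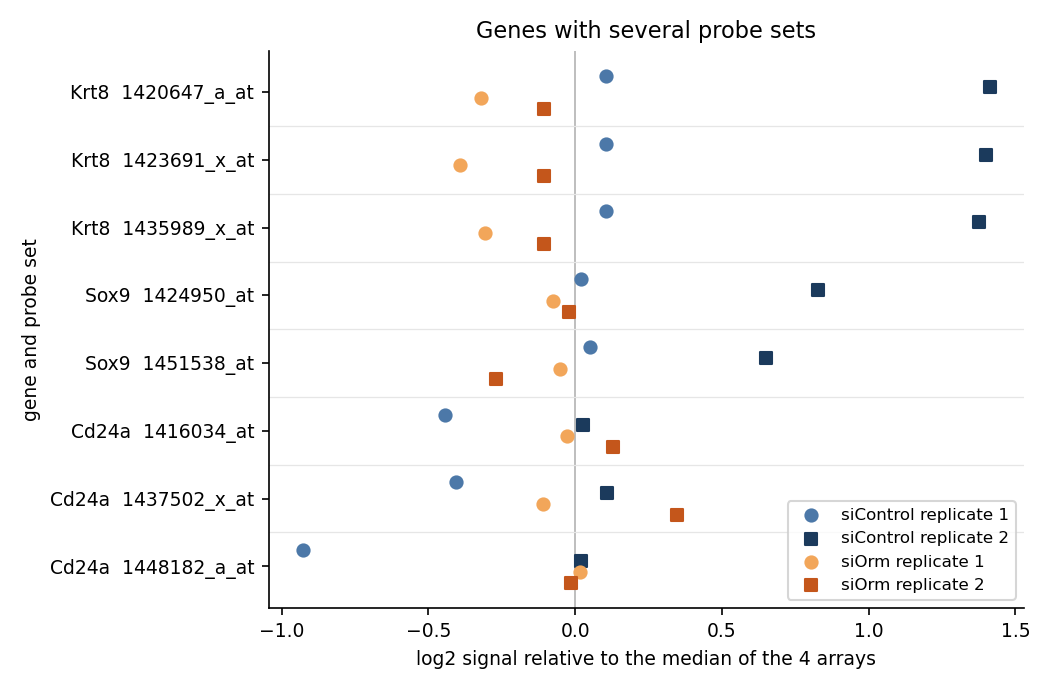
Log2 signal relative to the median of the 4 arrays (horizontal axis) for each probe set of Krt8, Sox9 and Cd24a, one point per array. The 3 Krt8 probe sets agree to within 0.083 in every array, and those of Cd24a differ by up to 0.52.

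Other keratins did not have a high siControl replicate 2. Of 20 further keratins measured out of 32 listed, many of them of skin and hair, siControl replicate 2 was the highest array in 0, against 28.1% of all genes. This was not particular to keratins. The marker lists of mesothelium, B cells, T and NK cells, pancreas, and gallbladder and gut also had 0. Which of these genes are at background cannot be seen in centred values. Krt86 had the smallest p among the 20 keratins and stood at 0.45 and 0.02 in siControl and at -0.11 and -0.02 in siOrm. Krt25 differed by 0.30, Krt83 by 0.24 and Krt15 by 0.22. Over the 20 genes, 1 was separated downwards (both siOrm arrays under both siControl arrays) and 1 upwards, against 15.3% and 17% of all genes. The median difference was 0.023, and 0 passed over all genes (limma, 0 at an unadjusted p under 0.05).

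**Figure D4:**
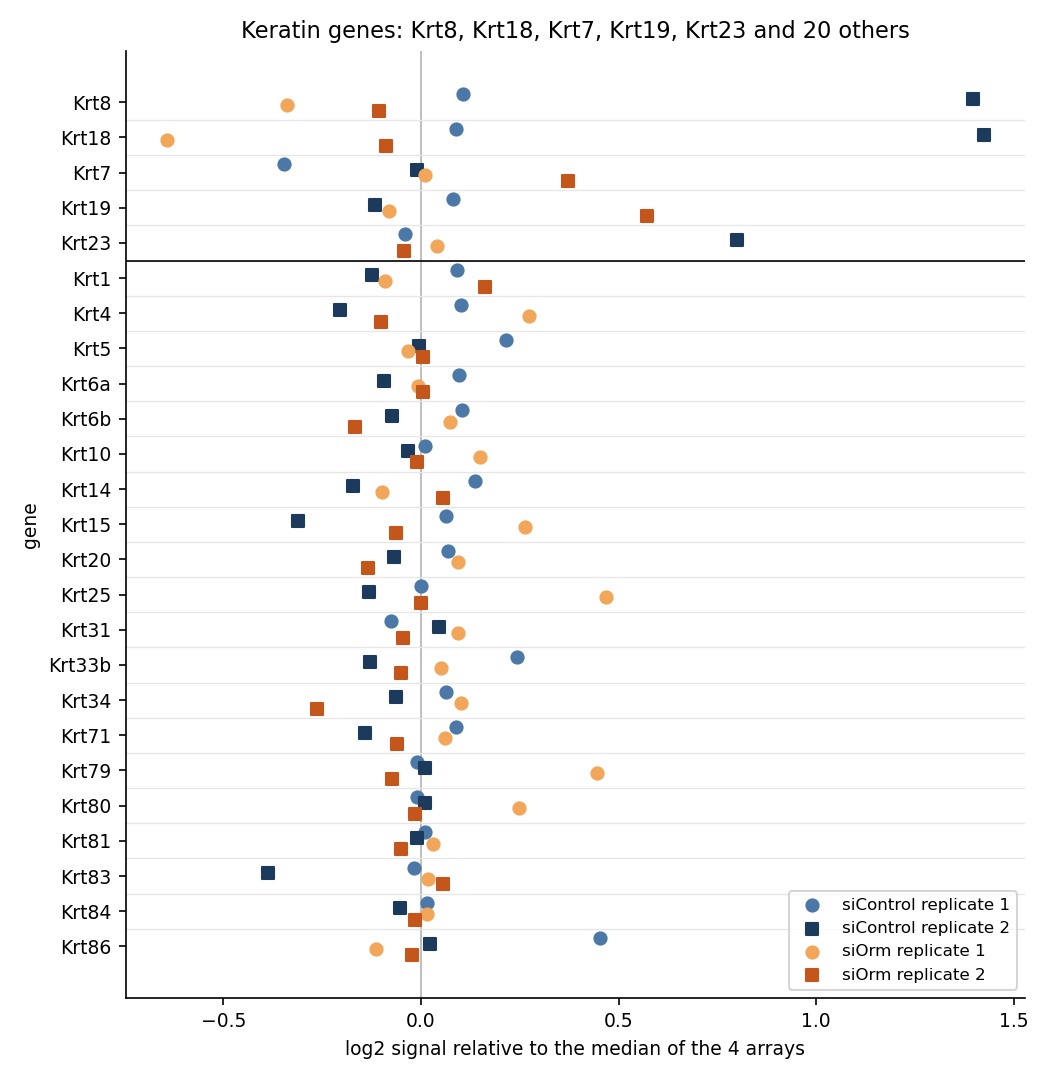
Log2 signal relative to the median of the 4 arrays (horizontal axis) for the 5 keratins of the set, above the black line, and 20 other keratins. The other keratins lie between -0.39 and 0.47, and none has siControl replicate 2 as its highest array.

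Genes that bind or organise filaments included several with the same high array as Krt8. Of 14 measured genes for other intermediate filaments and linkers, 3 had siControl replicate 2 more than 0.5 above each other array, against 4.44% of all genes. They were Eppk1, encoding epiplakin, a keratin-binding linker (1.65), Ppl, encoding periplakin of cell junctions (1.31), and Vim, the filament gene of mesenchymal cells (0.85). These 3 were picked out by that value after it was seen. The list had 0 genes past the test and 0 at an unadjusted p under 0.05 (limma), and a median difference of -0.12. It had 2 separated downwards and 0 upwards, against 15.3% and 17% of all genes. Those with the smallest p were Des at -0.22, Plec at -0.18, Ppl at -0.74 and Lmna at -0.12.

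Other genes of bile ducts also gave values in both directions. Of 23 measured, 5 were separated downwards and 2 upwards, against 15.3% and 17% of all genes, with a median difference of -0.025. In this list 0 passed over all genes and 3 were lower at an unadjusted p under 0.05 (limma), against 2.58% of all genes. Onecut1, a transcription factor of liver and duct development, stood at 0.52 and 1.13 in siControl and at -1.07 and -0.52 in siOrm, a difference of -1.62 (SE 0.28). Prom1, a surface protein of progenitor cells, differed by -0.996 (SE 0.33), and Slc10a2, the bile salt transporter of ducts and ileum, by -1.29 (SE 0.50). Elf3, an epithelial transcription factor, differed by -0.33.

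Of 16 other genes of progenitors and reactive ductules, 4 lay wholly lower in siOrm and 1 wholly higher, against 15.3% and 17% of all genes. None of the 16 passed the test, and 2 had an unadjusted p under 0.05, both lower (limma), against 2.58% of all genes. Tnfrsf12a, the receptor of the cytokine TWEAK, stood at 0.30 and 0.58 in siControl and at -1.24 and -0.30 in siOrm, a difference of -1.21 (SE 0.32). Kit differed by -0.38, Cd9 by -0.42 and Igf2bp3 by -0.22. The median difference of the list was -0.10.

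Junction genes were measured in 2 further lists. Of 20 claudin and tight junction genes, 6 were separated downwards and 2 upwards, the median difference was -0.10, and 1 was lower at an unadjusted p under 0.05 (limma, 0 past the test): Marveld2, encoding tricellulin, at -0.41 (SE 0.14). Cldn1 differed by -0.34, Lsr by -0.49 and Marveld3 by 0.26. Lsr overlapped between the groups, with siControl replicate 2 at 0.82 and siControl replicate 1 at -0.01. Of 16 adherens junction and desmosome genes, 2 were separated downwards and 4 upwards with a median of -0.03, and 0 had an unadjusted p under 0.05 (limma, 0 past the test). Ctnnb1, encoding beta-catenin, differed by -0.30, Cdh1, encoding E-cadherin, by -0.67, Nectin1 by 0.31 and Perp by 0.24. Cdh1 overlapped between the groups, with siControl replicate 2 at 0.98 and siControl replicate 1 at -0.03.

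Notch signalling passes between neighbouring cells and acts through RBPJ; in embryonic liver it directs cells to the duct fate and acts upstream of Sox9. Of 24 genes of the pathway, 1 was separated downwards and 2 upwards, against 15.3% and 17% of all genes. Their median difference was -0.0009, and 0 had an unadjusted p under 0.05 (limma, 0 past the test). The genes with the smallest p were Numb at 0.22, Itch at 0.21, Adam17 at -0.25 and Dll1 at 0.19. Of 9 genes listed as relatives, regulators or cartilage-type targets of SOX9, 1 was separated each way, against the same 15.3% and 17%. Their median was 0.05. Fgfr3 at 0.14, Sox5 at -0.14, Fgf9 at 0.18 and Acan at 0.12 had the smallest p, and 0 had an unadjusted p under 0.05 (limma). Of 9 receptors for osteopontin and CD24, 1 was separated downwards and 0 upwards, against 15.3% and 17% of all genes. In this list 0 had an unadjusted p under 0.05 (limma). Cd44, a receptor for osteopontin and hyaluronan, stood at -0.32 and 1.75 in siControl and at -0.34 and 0.32 in siOrm, and Itga5, Selp and Itgav differed by 0.14, -0.11 and -0.11.

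Markers of several other cell types were also high in siControl replicate 2. Of 14 macrophage and Kupffer cell markers, 13 were highest in siControl replicate 2. Their summed value was -4.04 and 11.88 in siControl, against -0.55 and -0.15 in siOrm, with Cd14 at 2.79 and Marco at 1.97 in siControl replicate 2. Neutrophil markers were not high there as a list: 3 of 9 had it as their highest array, against 28.1% of all genes, and the sums of 0.97 and 4.38 in siControl against -0.60 and -0.40 in siOrm rested on S100a8 at 2.75 and S100a9 at 1.95. Of 13 stellate cell and portal fibroblast markers 8 were highest there, with Dcn at 0.78 and Col3a1 at 0.84; the sums ran from -2.13 to 4.17 in siControl and from -0.76 to 1.04 in siOrm. Of 11 endothelial markers 8 were highest there, led by Lyve1 at 0.77 and Fcgr2b at 0.44, and the sums ran from -1.88 to 3.03 in siControl and from -0.10 to 0.15 in siOrm. The part of these cells in the high values of Krt8, Krt18, Krt23 and Sox9 was not tested, and which markers are at background cannot be seen in centred values.

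Mesothelium, the cell layer over the liver's surface, also makes KRT7, KRT8, KRT18 and KRT19. Of its 6 measured markers, 3 had both siOrm arrays above both siControl arrays and an unadjusted p under 0.05, with 0 past the test (limma). Over all genes 17% were separated upwards and 2.18% were higher at an unadjusted p under 0.05. The 3 were Msln at 0.46, Upk3b at 0.32 and Gpm6a at 0.59, the first 2 of them named after that count was seen. The siControl sums were -0.97 and -0.40 and the siOrm sums 0.26 and 1.14, highest in siOrm replicate 2 like Krt7 and Krt19. The markers were divided: Gpm6a, Rspo1 and Cav1 were highest in that array, and Msln, Upk3b and Wt1 in siOrm replicate 1. Gpm6a stood at -0.51 and -0.07 in siControl and at 0.07 and 0.52 in siOrm, and Rspo1 at 0.47 in siOrm replicate 2. The part of mesothelium in the values of Krt7 and Krt19 was not tested.

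The other marker lists had lower values in siControl replicate 2 or small spreads. The 12 hepatocyte markers had sums of -1.19 and -1.01 in siControl and 0.22 and 1.16 in siOrm. G6pc alone stood at -1.25 and -0.28 in siControl and at 0.28 and 0.88 in siOrm. The sums of siControl replicate 1 and of both siOrm arrays therefore rested largely on this 1 gene. Of the 12, 5 were separated upwards and 1 downwards, against 17% and 15.3% of all genes. G6pc differed by 1.34 and Tat by -0.44. The 10 pancreas markers had sums of 0.39 and -2.15 in siControl and 1.34 and 0.10 in siOrm, and the 10 of gallbladder and gut 0.47 and -2.38 against 1.96 and -0.13. Their widest ranges were in Cela1 and Pnliprp1 and in Lgals4 and Fabp2. B cell markers (7 genes) ran from -1.14 to 0.88, those of T and NK cells (8 genes) from -0.98 to 1.03 and those of erythroid cells (6 genes), which carry CD24, from -0.62 to 1.51 in summed value over the 4 arrays. The erythroid sum was highest in siOrm replicate 1 and lowest in siControl replicate 2, and its part in the values of Cd24a was not tested.

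**Figure D5:**
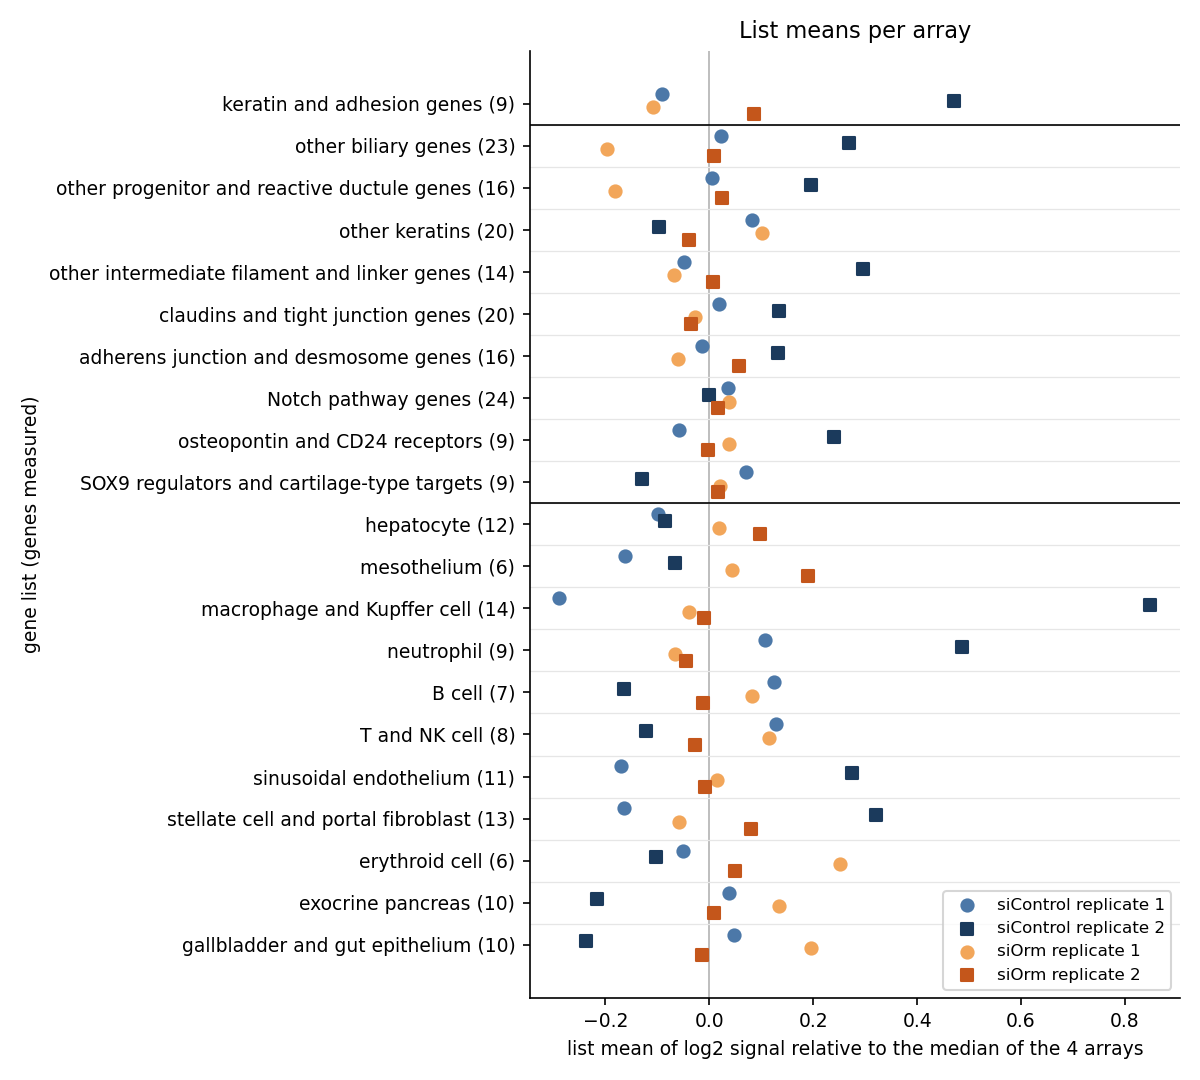
Mean log2 signal relative to the median of the 4 arrays (horizontal axis) over the genes of each list, one point per array, with the number of genes in brackets. SiControl replicate 2 is the highest array for the keratin and adhesion genes (0.47) and for macrophage markers (0.85), and the lowest for gallbladder and gut markers (-0.24). Gene by gene, it is the highest in 4 of the 9 keratin and adhesion genes and in 13 of the 14 macrophage markers.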

How the data were processed

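The 4 single-colour arrays of regenerating mouse liver comprised 2 siControl and 2 siOrm, grouped by title. The deposited table holds log2 signal for 18852 probe sets, from which the authors had subtracted the median of the 4 arrays (largest row median 4.8e-07), as the values show. The sources used here do not give the software, log base or normalization, and the labels' protocols describe cultured cells and an Agilent labelling kit, which does not match a liver series on this array. Of the probe sets, 17209 had 1 gene symbol in the platform annotation, 564 several and 1044 were not listed; 35 were controls. Those with 1 symbol gave 10923 genes. Signal level and background cannot be seen, so no filter was set, and the number of arrays limits the precision.

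Gene means were fitted with limma 3.58.1 in R 4.3.3 (lmFit, eBayes with a constant variance prior, two-sided), and p-values were adjusted over all genes by Benjamini-Hochberg with 0.05 as the limit. An exact permutation test of 2 against 2 arrays cannot give a p below 0.333. The fit was tested on simulated data with independent genes and the same variance in all arrays. SiControl replicate 2 does not match that setting, so the simulation does not vouch for the fit on these arrays. The members, lists and motifs were chosen with earlier results of these data known. Named genes were all members, the 4 of each context list with the smallest p, the 3 nearest genes for the 3 members of widest range, and the 2 markers of widest range in each marker list; others are said to be named after their values were seen. Promoter windows are from RefSeq, GRCm38.p6. Alternatives were a trend in the prior, quantile normalization, other probe set choices, a replicate block and leaving out each array.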

Additional observations from a re-analysis of the deposited data

How the results depend on the processing

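With all 4 arrays 0 genes passed, and 0 passed after quantile normalization, without probe sets that can share sequence, and with the probe set of largest standard deviation for each gene. A variance prior with a trend called 11 genes, none of the 9. Leaving out 1 array gave 0 to 229 genes and 0 to 2 of the 9; the 2 were Krt8 and Krt18 without siControl replicate 1. With 1 array left out, Krt23 ran from -0.80 to 0.039 and Krt19 from -0.064 to 0.59, the 2 genes whose direction turned; Krt8 ran from -1.62 to -0.33, Krt18 from -1.79 to -0.45, Sox9 from -0.84 to -0.14, Krt7 from 0.19 to 0.55, Cd24a from 0.0052 to 0.65, Epcam from 0.13 to 0.20 and Cldn7 from 0.0012 to 0.079. After quantile normalization Krt8 differed by -0.65, Krt18 by -0.75, Krt23 by -0.21 and Krt19 by 0.49. Of 189 list medians (21 lists, each under 9 alternatives) 18 moved by more than the spread between replicates and 171 did not, but 32 turned sign, in 13 of the lists. Under 2 of the 9 alternatives, the trend and the replicate block, no median could move, since these change only the SE. Those medians are counted among the 171. Without siControl replicate 2 the macrophage median turned from -0.20 to 0.34, the endothelial one from -0.012 to 0.19, the stellate one from -0.069 to 0.14 and that of other keratins from 0.023 to -0.039; after quantile normalization the adherens junction median turned from -0.033 to 0.053. The 2 replicate numbers were not shown to pair the arrays (correlation across genes of same-numbered deviations 0.132, from 2 pairs); with the replicate block 0 genes and 0 of the 9 passed.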
